A study of Mus musculus with 18 samples.

Results

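The genes described here are the 9 that the study's count table holds for the gamma delta T cell receptor and its lineage: the constant gene of the delta chain (Trdc), 1 delta variable segment (Trdv4), 3 gamma constant genes (Tcrg-C1, Tcrg-C2 and Tcrg-C4), 3 gamma variable segments (Tcrg-V4, Tcrg-V5 and Tcrg-V6) and the transcription factor Sox13. They were chosen by name from 49585 genes and not by a cutoff on measured values, though earlier results of these data were known. The 18 other annotated genes whose symbols start with Tcrg, Trg, Trdv, Trdd or Trdj were kept as a separate list.

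Bulk RNA was sequenced from 18 libraries in 6 groups of 3. The mice were of the Kaede strain, which carries a photoconvertible protein that UV light turns irreversibly from green to red. Red cells found in a draining lymph node (LN) are taken to have left the photoconverted tissue. Right after photoconversion of the joint, the paper saw slightly more red cells in its LN than without it, which it calls incidental photoconversion. Recipient mice in the protocol received OT-II CD45.1 CD4+ T cells polarized to Th1 in culture, followed by ovalbumin in complete Freund's adjuvant. Inflammation was then raised with heat-aggregated ovalbumin (HAO) in the footpad or the ear pinna, and viable CD45+ Kaede red+ cells were sorted. Joint nonmigrated cells stayed in the inflamed joint, and joint migrated cells were recovered from the LNs that drain it. Skin nonmigrated and skin migrated cells are the matching populations of the inflamed ear, which the study calls skin. The joint steady state and skin steady state groups are labeled as CD45+ cells that had migrated from the uninflamed joint or ear to the LN. The titles of the joint steady state libraries name PBS, the control challenge of the protocol, and carry the letters KG, which are not explained, and those of the skin steady state libraries read Naive. Whether the mice of the Naive libraries received the T cells and ovalbumin is not given. Site and treatment thus cannot be told apart between the steady state groups. The protocol describes a single sort, of Kaede red+ cells, and the titles do not settle whether it was used for these 2 groups, so a difference between migrated and steady state cells is one from LN cells labeled as migrated. Each inflamed library is a pool of several mice of both sexes, so the spread given below is between pools there. Pooling and sex are not given for the steady state libraries. The transferred Th1 cells carry an alpha beta receptor.

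A gamma delta T cell makes its receptor from a gamma and a delta chain, each joining a variable (V) segment to a constant (C) segment by rearrangement, and pairs it with the same CD3 chains that alpha beta T cells use. In the mouse the V segment goes with location: Tcrg-V5 paired with Trdv4 is the receptor of dendritic epidermal T cells, the gamma delta cells that live among keratinocytes, while Tcrg-V6, which also pairs with Trdv4, marks cells of dermis, joints and other tissues. Tcrg-V4 is used by cells of dermis and lymph nodes, many of which make IL-17 and depend on Sox13.

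The last 180 coding bases of the 4 V segments are given here, because the groups differed in which of them they held rather than in the constant genes alone. All coordinates are on GRCm38 (mm10), with GENCODE M21 gene models. Tcrg-V4 (ENSMUSG00000076745, chr13:19184974-19185506, plus strand), Tcrg-V6 (ENSMUSG00000076746, chr13:19190356-19190929) and Tcrg-V5 (ENSMUSG00000076747, chr13:19192278-19192725) lie in this order upstream of Tcrg-C1 on the same strand, and Trdv4 (ENSMUSG00000076867, chr14:54074905-54075515) lies upstream of Trdc. Capitals mark the bases from the codon of the conserved cysteine, where the hypervariable loop made by joining begins, to the germline end at which the segment is joined.
Tcrg-V5: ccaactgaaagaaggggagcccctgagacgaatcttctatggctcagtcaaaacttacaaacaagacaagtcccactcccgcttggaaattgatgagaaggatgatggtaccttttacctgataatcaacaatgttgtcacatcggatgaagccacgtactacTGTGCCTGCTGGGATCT
Trdv4: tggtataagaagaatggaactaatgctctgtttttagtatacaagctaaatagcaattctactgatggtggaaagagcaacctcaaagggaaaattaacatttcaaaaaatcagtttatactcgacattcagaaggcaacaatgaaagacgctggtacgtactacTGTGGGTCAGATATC
Tcrg-V6: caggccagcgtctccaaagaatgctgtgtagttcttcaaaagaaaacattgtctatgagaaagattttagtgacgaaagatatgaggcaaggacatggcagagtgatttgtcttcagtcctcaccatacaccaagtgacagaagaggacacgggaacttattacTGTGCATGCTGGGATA
Tcrg-V4: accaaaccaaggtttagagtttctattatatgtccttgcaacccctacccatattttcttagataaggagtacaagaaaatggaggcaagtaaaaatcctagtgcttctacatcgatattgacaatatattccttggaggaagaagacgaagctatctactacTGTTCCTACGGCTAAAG
Between any pair of the 4 whole coding sequences 49.0 to 51.6% of aligned positions were identical, and no window of 100 bases, the read length, was shared with another transcript. Reads of the 4 segments can therefore be told apart by sequence. The printed Tcrg-V4 germline holds 1 in-frame stop codon in the capitals, at the end that rearrangement replaces.

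The constant genes were less separable. Tcrg-C1 (ENSMUSG00000076749, chr13:19214103-19217024) and Tcrg-C2 (ENSMUSG00000076752, chr13:19304649-19307551, minus strand) were identical over 94.6% of their aligned coding bases, and 8.24% of the 100-base windows of Tcrg-C1 also occurred in Tcrg-C2 or Tcrg-C3. For Tcrg-C4 (ENSMUSG00000076757, chr13:19344558-19352756) the identity with Tcrg-C1 was 70.8% and no window was shared. Trdc (ENSMUSG00000104876, chr14:54142851-54148868) overlaps exons of Trdv5 and Gm43434 on the opposite strand and shared 2.87% of its windows with Trdv5, and Tcrg-V4 overlaps Gm31887 on the opposite strand. HTSeq was run by the authors under its default settings, and whether the library kit marked strand is not given in the sources used here. Sox13 (ENSMUSG00000070643, chr1:133382303-133424377, minus strand) shared no window.

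Libraries held 19239531 to 43814403 counts assigned to genes, with the 6 inflamed skin libraries at 19239531 to 22528895 and the other 12 at 28577566 or more. Site and whatever separates these 6 libraries cannot be told apart in a comparison of inflamed joint with inflamed skin. Levels are given in CPM, counts scaled to a common library size with TMM factors over the 18 libraries, and a count of 3, taken as the floor, equals 0.0616 to 0.18 CPM. Replicate 3 of skin nonmigrated had less RNA of T cell genes than its partners (339 CPM summed over 8 T cell markers, against 912 and 1027), and replicate 1 of joint migrated had the most in its group (2478 CPM, against 1751 and 2111). Results that rest on these libraries are given with and without them. In bulk samples, fewer gamma delta cells and less receptor RNA per cell cannot be told apart. Receptor RNA from other cell types cannot be told apart from these either. The labels give CD45+ cells, and Ptprc, which encodes CD45, stood at 1156 to 2531 CPM in the 18 libraries. Markers of dendritic cells summed to 1358 to 4158 CPM in the migrated groups but to 15.1 to 21.4 CPM in the steady state groups, where B cell markers stood at 2188 to 3740 CPM, against 115 to 795 CPM in the migrated groups. The steady state libraries thus differ from the inflamed migrated ones in leukocyte makeup as well as in treatment.

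The constant gene of the delta chain, Trdc, is used by every gamma delta receptor and is read here as a general measure of the lineage. Innate lymphoid and NK markers also differed between the groups. They summed to 152 to 259 CPM in joint nonmigrated, 664 to 861 CPM in joint migrated, 623 to 891 CPM in the skin inflamed groups and 321 to 455 CPM at steady state. Their part in the levels and ratios of Trdc was not tested. In joint nonmigrated cells Trdc stood at 9.63, 14.6 and 17.7 CPM, and in joint migrated cells at 159, 95.6 and 78.4 CPM. In skin nonmigrated cells it stood at 153, 155 and 50.7 CPM, and in skin migrated cells at 94.3, 89.0 and 117 CPM. The joint groups did not overlap, with every migrated library above every nonmigrated one, whereas the skin groups overlapped. At steady state Trdc lay between 36.7 and 43.3 CPM in joint LNs and between 30.5 and 37.0 CPM in skin LNs, above joint nonmigrated cells and below all other inflamed libraries. By mean the order was skin nonmigrated, joint migrated, skin migrated, joint steady state, skin steady state and joint nonmigrated. The ranges of neighbors overlapped in this order except between skin migrated and joint steady state and between skin steady state and joint nonmigrated.

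**Figure D1:**
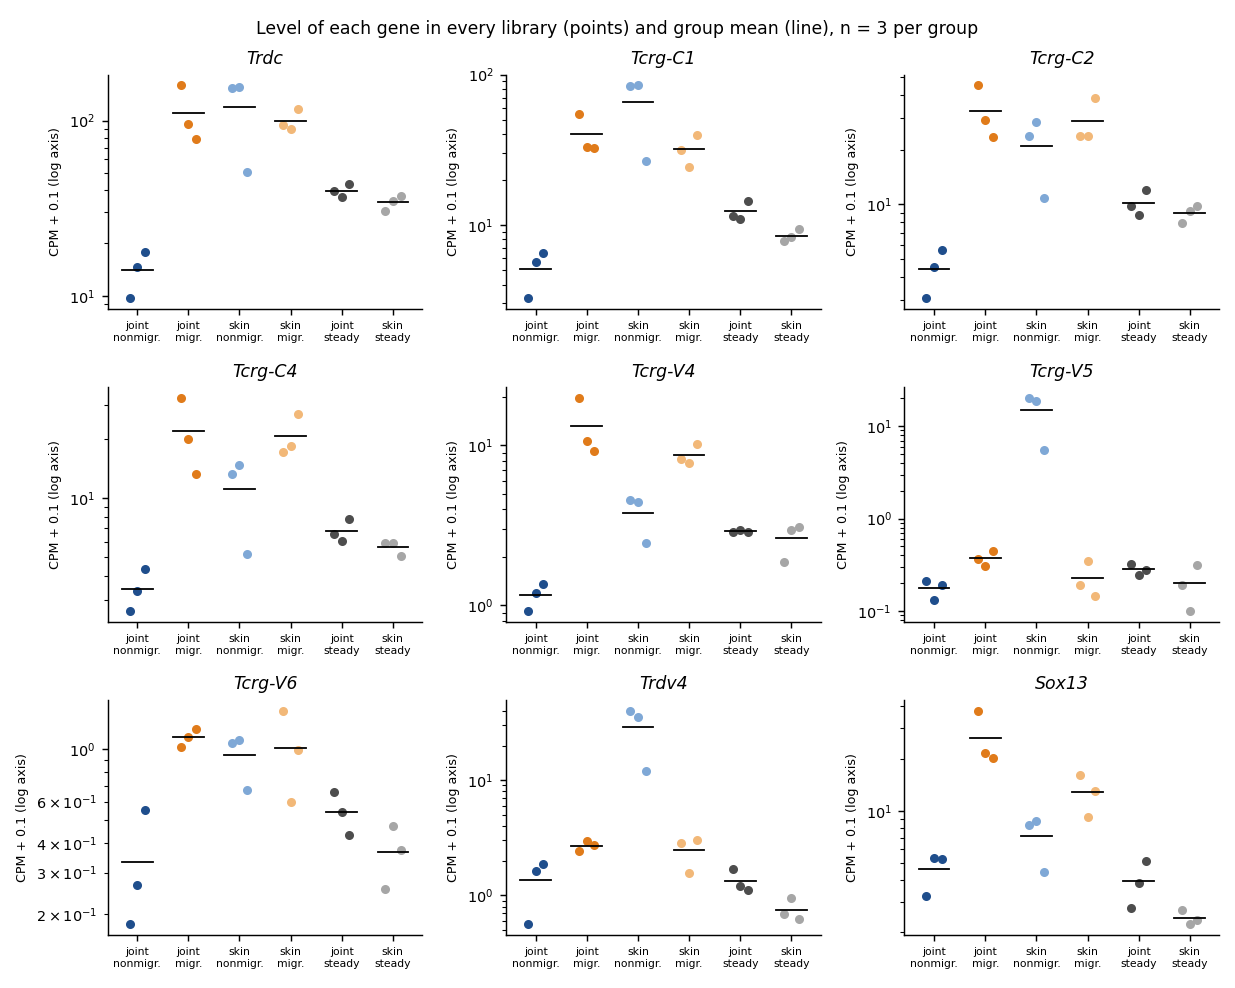
CPM plus 0.1 (log axis, own range in each panel) of the 9 genes in each of 18 libraries, by group, with the group mean as a line (n = 3 libraries per group). Joint nonmigrated libraries were at the bottom for Trdc, Tcrg-C1, Tcrg-C2, Tcrg-C4 and Tcrg-V4, and skin nonmigrated libraries stood far above all others for Tcrg-V5 and Trdv4.

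The gamma constant genes complete the receptor. Tcrg-C1 stood at 3.15, 5.52 and 6.38 CPM in joint nonmigrated cells, at 54.7, 33.1 and 32.5 CPM in joint migrated cells, at 83.8, 84.95 and 26.7 CPM in skin nonmigrated cells and at 31.6, 24.3 and 39.6 CPM in skin migrated cells. Of the 3 gamma constant genes it was the only one whose mean was highest in skin nonmigrated cells. Tcrg-C2 ranged from 2.95 to 5.50 CPM in joint nonmigrated, from 23.3 to 45.1 CPM in joint migrated, from 10.7 to 28.4 CPM in skin nonmigrated and from 23.5 to 38.2 CPM in skin migrated cells. Tcrg-C4 ranged from 2.54 to 4.24, from 13.2 to 32.5, from 5.09 to 14.7 and from 17.1 to 26.9 CPM in the same order. Per kilobase of exon, the mean level of Tcrg-C1 in skin nonmigrated cells was 70.5 CPM per kb, that of Tcrg-C2 22.9 and that of Tcrg-C4 11.2, whereas in joint migrated cells the 3 levels were 43.4, 35.5 and 22.2 CPM per kb.

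Among the V segments, Tcrg-V5 was close to absent outside skin nonmigrated cells. It had 335, 320 and 104 counts in skin nonmigrated cells, or 20.1, 18.7 and 5.41 CPM. In joint nonmigrated cells it had 4, 1 and 3 counts, in joint migrated cells 13, 9 and 16, and in skin migrated cells 2, 5 and 1. In joint steady state LNs it had 10, 6 and 8 counts, and in skin steady state LNs 4, 0 and 7. All 3 skin nonmigrated libraries lay above the other 15, and several of the 15 were at or below the floor. Trdv4, the delta segment that pairs with it, followed the same pattern at a higher baseline. It stood at 39.9, 35.3 and 12.01 CPM in skin nonmigrated cells and between 0.465 and 2.93 CPM in the other 15 libraries.

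Tcrg-V4 was lowest in joint nonmigrated cells, at 0.821, 1.10 and 1.26 CPM, and highest in joint migrated cells, at 19.7, 10.5 and 9.11 CPM. In skin nonmigrated cells it stood at 4.44, 4.33 and 2.34 CPM, and in skin migrated cells at 8.10, 7.64 and 10.1 CPM. Migrated and nonmigrated libraries did not overlap at either site. Tcrg-V6 was scarce throughout, with 3 to 52 counts per library. It stood at 0.0821, 0.166 and 0.451 CPM in joint nonmigrated cells, at 0.924, 1.03 and 1.11 CPM in joint migrated cells, at 0.960, 0.994 and 0.572 CPM in skin nonmigrated cells and at 1.35, 0.499 and 0.886 CPM in skin migrated cells. The 1 library of joint nonmigrated cells at the floor was replicate 1, with 3 counts.

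Sox13 stood at 37.5, 21.4 and 19.9 CPM in joint migrated cells, above every other library of the series. It stood at 3.15, 5.25 and 5.17 CPM in joint nonmigrated cells, at 8.22, 8.59 and 4.31 CPM in skin nonmigrated cells and at 16.0, 9.14 and 12.9 CPM in skin migrated cells. At steady state it lay between 2.67 and 5.04 CPM in joint LNs and between 2.13 and 2.58 CPM in skin LNs. The order of the groups thus differed from that of Trdc, with joint migrated cells alone at the top.

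Cells that left the inflamed joint were compared with those that stayed, to ask which transcripts go with egress. Most of the genes rose in the migrated cells: 7 of the 9, Sox13 among them, were called higher and none lower, against 34.3% of the 16777 tested genes called in either direction, 16% higher and 18.4% lower. Here a call needs an absolute log2 fold change over 1 and an adjusted p below 0.05. Tcrg-V4 rose by 3.63 ± 0.363 on the log2 scale (SE, adjusted p = 8.8e-06 with edgeR's quasi-likelihood test, Benjamini-Hochberg). Tcrg-C1 rose by 3.00 ± 0.44, Trdc by 2.99 ± 0.419, Tcrg-C2 by 2.92 ± 0.397, Tcrg-C4 by 2.71 ± 0.428 and Sox13 by 2.54 ± 0.351, with adjusted p in edgeR between 8.43e-05 and 0.000244. Tcrg-V6 rose by 2.12 ± 0.541 (edgeR adjusted p = 0.00576). Tcrg-V5 (1.73 ± 0.718, adjusted p = 0.0586) and Trdv4 (1.06 ± 0.506, adjusted p = 0.096) did not pass in edgeR, and DESeq2 called Tcrg-V5. The members' median log2 fold change was 2.71, against 0.02 over all tested genes. Without joint migrated replicate 1, 7 genes were again called, with Tcrg-V4 at 3.22 and Trdc at 2.66.

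Other T cell genes rose with them. All 6 genes of the alpha beta receptor and its coreceptors were called higher, with a median of 2.88, among them Cd8a (3.91 ± 0.40), Cd8b1 (4.04 ± 0.42) and the beta chain constant gene Trbc2 (3.06 ± 0.37). All 4 CD3 genes were called higher, with a median of 2.84, and Cd3e, a signaling chain shared by both receptors, rose by 2.94 ± 0.36. In the same comparison, summed neutrophil markers fell from 5072 to 15792 CPM in nonmigrated libraries to 32.8 to 83.3 CPM in migrated ones, and macrophage and monocyte markers from 4437 to 6315 CPM to 270 to 406 CPM. T cell markers went from 229 to 395 CPM up to 1751 to 2478 CPM. The part of this change in makeup in the rise of the receptor genes was not tested by the fit.

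The 6 further gamma and delta segments that passed the filter, of the 18 listed, were called higher as well. The delta segments Trdv5 (5.13 ± 0.53), Trdv1 (3.60 ± 0.42) and Trdv2-2 (3.19 ± 0.50) and the gamma segment Trgv2 (3.05 ± 0.41) had the smallest adjusted p, from 1.1e-05 to 0.000221 in edgeR. Trdv5 overlaps Trdc on the opposite strand, so the values of the pair may not be separate.

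**Figure D2:**
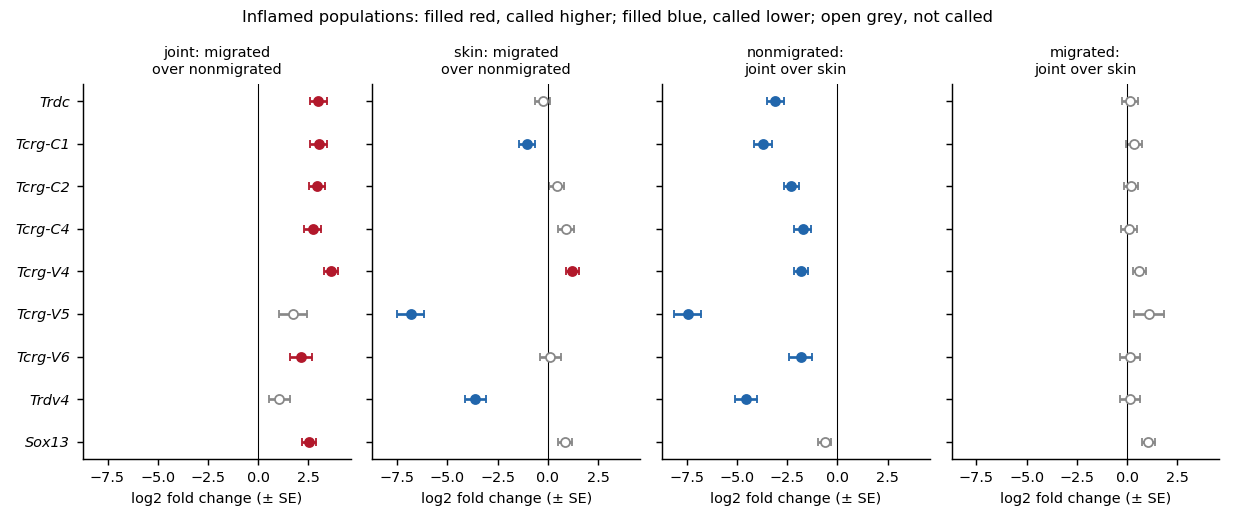
Log2 fold change with its SE (horizontal axis) of the 9 genes in 4 comparisons of the inflamed populations, 3 pools per group, edgeR. In the joint 7 genes were higher in migrated cells, in the skin Tcrg-V5, Trdv4 and Tcrg-C1 were lower and Tcrg-V4 higher, and between migrated cells of joint and skin no gene was called.

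The same question in skin gave a divided answer. Of the 9 genes 1 was called higher and 3 lower in skin migrated cells, against 35.4% of tested genes called in either direction, 15.7% higher and 19.7% lower. Tcrg-V5 fell by 6.83 on the log2 scale (SE 0.655, edgeR adjusted p = 6.6e-06) and Trdv4 by 3.61 (SE 0.524, edgeR adjusted p = 0.000133). Tcrg-C1 fell by 1.04 (SE 0.407, edgeR adjusted p = 0.0464). Tcrg-V4 rose by 1.22 ± 0.335 (edgeR adjusted p = 0.00859). Trdc was at -0.26 ± 0.387, Tcrg-V6 at 0.12 ± 0.524, Tcrg-C2 at 0.44 ± 0.369, Tcrg-C4 at 0.91 ± 0.405 and Sox13 at 0.84 ± 0.342 (edgeR adjusted p = 0.0527), none of them called. The fold of Tcrg-V5 rests on 1 to 5 counts per skin migrated library and is imprecise for that reason.

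The calls of Tcrg-V4 and Tcrg-C1 were sensitive to single libraries. Without skin nonmigrated replicate 3, Tcrg-V4 was at 0.98 and no longer passed the fold threshold, Tcrg-C1 was at -1.40 and stayed called, Tcrg-V5 was at -7.22 and Trdv4 at -3.98. Tcrg-C1 lost its call without any of the other 5 skin inflamed libraries, at values from -1.24 to -0.79. Over all 6 left-out libraries, 3 to 5 genes were called.

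Alpha beta and CD3 genes moved upward in this comparison: 5 of the 6 alpha beta genes were called higher (median 1.94), led by Cd8b1 (3.25 ± 0.40) and Cd8a (2.80 ± 0.38), and 3 of the 4 CD3 genes (median 1.02), with Cd3d at 1.70 ± 0.35. Among the further segments Trdv1 (2.73 ± 0.42), Trdv5 (1.77 ± 0.46) and Tcrg-V1 (1.52 ± 0.53) were called higher and none lower, 3 of 6. Keratinocyte markers moved with Tcrg-V5 and Trdv4. Their summed level over Krt5, Krt14, Krt10 and Krt1 was 139, 281 and 23.8 CPM in skin nonmigrated replicates 1 to 3, with all 4 genes above the floor, and 0.299 to 2.29 CPM in the other 15 libraries, where Krt5 stood at 0 to 0.465 CPM. Replicate 3, with least keratinocyte RNA, was also the one with least Tcrg-V5, and it was lowest in T cell markers as well. Replicate 2 had more keratinocyte RNA than replicate 1 but less Tcrg-V5, at 18.7 against 20.1 CPM. The part of the epidermal content in the result was not tested.

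Cells that stayed in the 2 inflamed tissues were compared with each other. All but 1 of the 9 genes were called lower in the joint (8 of 9, against 14.3% of tested genes called in either direction, 8.86% lower and 5.45% higher). The gap was widest for the epidermal pair, Tcrg-V5 at -7.46 ± 0.661 and Trdv4 at -4.54 ± 0.547, followed by Tcrg-C1 (-3.71 ± 0.453) and Trdc (-3.11 ± 0.422), with adjusted p in edgeR from 5.11e-05 to 0.0005. Tcrg-C2 (-2.29 ± 0.393), Tcrg-V6 (-1.84 ± 0.568), Tcrg-V4 (-1.80 ± 0.357) and Tcrg-C4 (-1.72 ± 0.423) were also called. Sox13 was at -0.64 ± 0.345 and not called (edgeR adjusted p = 0.185). The call of Tcrg-V6 (edgeR adjusted p = 0.0326) was lost without joint nonmigrated replicate 1 or 2 or skin nonmigrated replicate 1 or 2, at -1.73 to -1.42. Without skin nonmigrated replicate 3 all 8 calls were made again, with Trdc at -3.47. Of the alpha beta list 3 of 6 genes were called lower, Cd8a, Cd4 and Cd8b1, by 1.44, 1.04 and 1.27 on the log2 scale, and Trac was at -0.54 ± 0.34. All 4 CD3 genes were called lower, from -1.96 (Cd3g) to -1.15 (Cd3d). Markers of other cells moved too: 5 of 6 neutrophil markers (median 2.75) and 4 of 4 B cell markers (median 4.70) were called higher in the joint, and 5 of 6 dendritic cell markers (median -1.82) and 4 of 4 keratinocyte markers (median -9.47) lower. Summed neutrophil markers stood at 5072 to 15792 CPM in joint and at 1473 to 2437 CPM in skin nonmigrated libraries, B cell markers at 72.6 to 178 and 7.02 to 16.4 CPM, and dendritic cell markers at 62.0 to 91.6 and 326 to 662 CPM. The part of this difference in makeup in the receptor genes was not tested.

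Migrated cells of the joint were then set against migrated cells of the skin. None of the 9 genes was called by edgeR, against 1.14% of tested genes in either direction, 0.56% higher and 0.578% lower. At an unadjusted p under 0.05 there was 1 gene, Sox13 (1.06 ± 0.333, edgeR adjusted p = 0.137), which DESeq2 called. Trdc was at 0.15 ± 0.386, Tcrg-C1 at 0.33 ± 0.402, Tcrg-V4 at 0.61 ± 0.32 and Tcrg-V6 at 0.16 ± 0.495. The missed threshold does not show that the sites are alike. Without joint migrated replicate 1 Trdc was at -0.18, Tcrg-C2 at -0.11 and Tcrg-C4 at -0.31.

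The change with migration was tested for a difference between the sites as an interaction. The signed change was called higher in the joint than in the skin for 6 of the 9 genes, against 6.13% of tested genes called in either direction, 3.96% higher and 2.17% lower in the joint. For Tcrg-V5 and Trdv4 the joint change itself was not called, and the skin change was a fall. The difference was 8.56 ± 0.954 on the log2 scale for Tcrg-V5, 4.67 ± 0.721 for Trdv4 and 4.04 ± 0.596 for Tcrg-C1 (edgeR adjusted p from 0.00105 to 0.00421). It was 3.26 ± 0.563 for Trdc, 2.48 ± 0.532 for Tcrg-C2 and 2.41 ± 0.479 for Tcrg-V4. Sox13 (1.70 ± 0.48, edgeR adjusted p = 0.0525), Tcrg-C4 (1.80 ± 0.576, adjusted p = 0.0777) and Tcrg-V6 (2.00 ± 0.751, adjusted p = 0.12) were not called. Without skin nonmigrated replicate 3, 8 genes were called, with Sox13 at 1.95 and Tcrg-C4 at 2.14 added. Without joint migrated replicate 1, 6 genes were called, with Trdc at 2.93 and Tcrg-V4 at 2.02. With replicate number added to the fit, Tcrg-C2 and Tcrg-V4 lost their calls. Of the 4 CD3 genes 3 also differed (Cd3e 1.91 ± 0.48, Cd3g 1.99 ± 0.53, Cd247 1.73 ± 0.48), and none of the 6 alpha beta genes was called by edgeR, with 2 at an unadjusted p under 0.05 and a median of 0.99.

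Levels against the whole library mix the number of T cells with the kind of T cell, so Trdc was also expressed against the T cell genes of its own library. Per 100 counts of Cd3d, Cd3e and Cd3g summed, joint nonmigrated cells held 18.1, 15.9 and 15.8 counts of Trdc and joint migrated cells 21.6, 16.3 and 16.5. Skin nonmigrated cells held 42.3, 41.0 and 38.6, and skin migrated cells 16.4, 15.5 and 20.3. Skin nonmigrated cells stood apart from the other inflamed groups, and the remaining 3 groups overlapped. The group means were 16.6 ± 1.29 (SD, n = 3), 18.2 ± 3.02, 40.6 ± 1.84 and 17.4 ± 2.56. In the joint the log2 ratio differed by 0.12 between migrated and nonmigrated cells, less than the pooled SD of 0.181 (exact permutation test, two-sided, p = 0.5, 0.6 after adjustment over 4 comparisons). In the skin it was lower by 1.23 in migrated cells, a 2.35-fold difference (exact permutation p = 0.1, adjusted 0.2). Nonmigrated cells of the joint were below those of the skin by 1.29 (exact permutation p = 0.1, adjusted 0.2), and migrated cells of the sites differed by 0.06 (exact permutation p = 0.6, adjusted 0.6). With 3 against 3 libraries p cannot go below 0.1, so these tests cannot pass 0.05.

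Skin nonmigrated replicate 3, which was below its partners in CPM for all 9 genes, was close to its partners in this ratio. Against Trac, the constant gene of the alpha chain, skin nonmigrated cells held 128, 111 and 114 counts of Trdc per 100 counts, above every other library. Joint nonmigrated cells held 19.0, 22.0 and 19.0, and the means of the other groups were 26.2 ± 7.56 in joint migrated, 28.2 ± 4.67 in skin migrated, 9.58 ± 0.776 in joint steady state and 6.57 ± 1.03 in skin steady state (SD, n = 3 each). These 2 ratios compare counts of genes of unlike length and are read across libraries only.

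**Figure D3:**
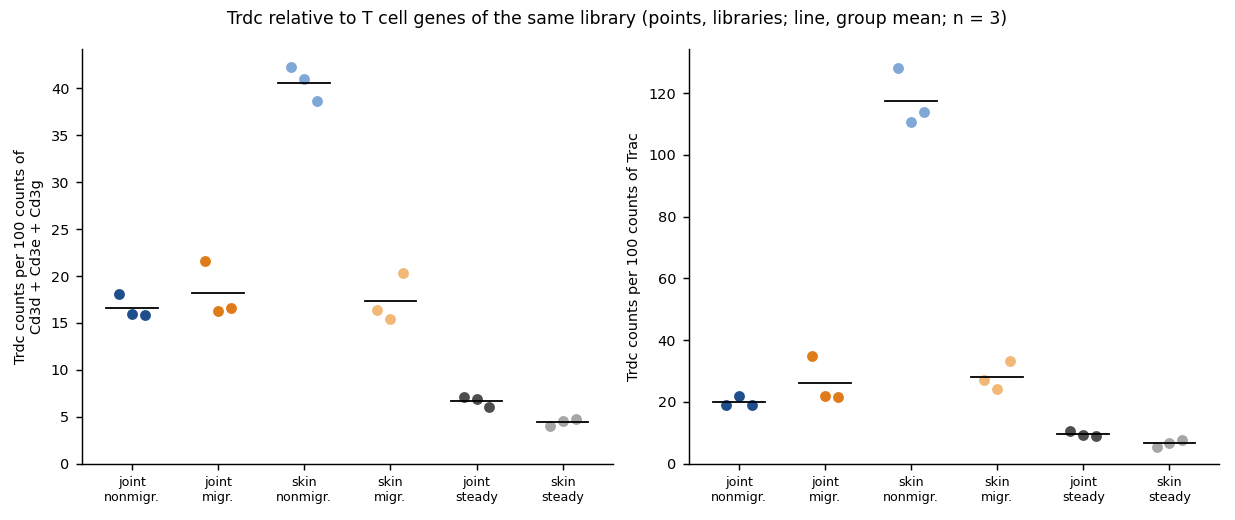
Trdc counts per 100 counts of Cd3d, Cd3e and Cd3g (left) and per 100 counts of Trac (right) in 18 libraries, with group means as lines (n = 3). Skin nonmigrated libraries lay at 38.6 to 42.3 per 100 CD3 counts, the other 3 inflamed groups at 15.5 to 21.6 and the steady state groups at 3.99 to 7.06.

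Sox13 gave another order on this scale. Per 100 CD3 counts it stood at 5.43 ± 0.692 in joint nonmigrated and 4.32 ± 0.736 in joint migrated cells, against 2.61 ± 0.586 and 2.20 ± 0.599 in the skin groups and 0.627 ± 0.130 and 0.303 ± 0.0297 in joint and skin steady state LNs (SD, n = 3 each). Every inflamed joint library was above every skin library, at 3.65 or more against 3.29 or less. Tcrg-V4 stood at 1.29 ± 0.22, 2.13 ± 0.479, 1.38 ± 0.347 and 1.499 ± 0.228 per 100 CD3 counts in nonmigrated and migrated joint cells and then in nonmigrated and migrated skin cells, and at 0.474 ± 0.0767 and 0.332 ± 0.0867 in the steady state groups. These values were not tested.

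The make-up of the V counts was read as shares within each locus, which need no library size. Delta shares are over genes with a Trdv symbol, so any delta segment annotated under another symbol is left out. Over the 7 annotated gamma V segments, Tcrg-V5 took 59.3, 53.5 and 41.1% of the counts in skin nonmigrated cells and at most 4.60% in any other library. In the delta locus Trdv4 took 95.8, 91.9 and 92.0% of the Trdv counts in skin nonmigrated cells. It took 44.7, 79.3 and 75.6% in joint nonmigrated cells, 15.6 to 30.4% in joint migrated cells and 20.7 to 29.9% in skin migrated cells. Joint nonmigrated cells were thus high in the share of Trdv4 without Tcrg-V5, whose share there was 1.11 to 4.60%, and their Trdv4 counts were 17, 46 and 59. Tcrg-V6, the other usual partner of Trdv4, took 3.45, 5.56 and 11.3% of gamma V counts in joint nonmigrated cells, on 3, 5 and 15 counts, and 2.18 to 6.68% in every other library.

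Tcrg-V4 and Trgv2 made up most of the gamma V counts outside skin nonmigrated cells. Tcrg-V4 took 46.5, 46.7 and 45.0% in joint migrated cells, 34.5, 36.7 and 31.6% in joint nonmigrated cells, 36.5 to 42.4% in migrated cells of the skin and 33.4 to 42.0% at steady state. All 3 joint migrated libraries were above the other 15 in this share. In skin nonmigrated cells it took 12.4 to 17.8%. Among the gamma constant genes Tcrg-C1, downstream of Tcrg-V4, Tcrg-V5 and Tcrg-V6, took 66.1 ± 3.4% of counts in skin nonmigrated cells (SD, n = 3) and 35.3 to 46.9% elsewhere. Shares are descriptions of gene counts, since HTSeq assigns a read pair to 1 gene and drops pairs that touch more than 1 annotated segment.

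**Figure D4:**
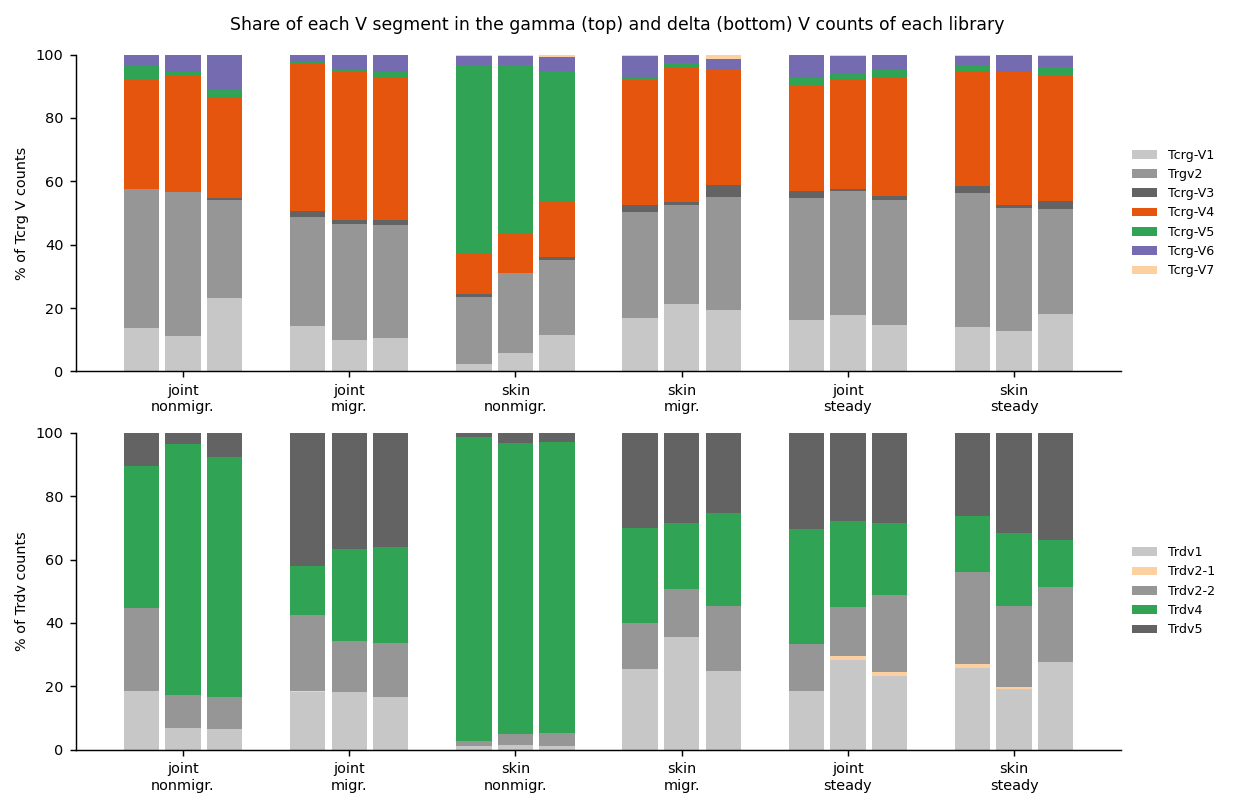
Percent of gamma V counts (top) and of Trdv counts (bottom) taken by each segment in each of 18 libraries, 3 bars per group. Tcrg-V5 (green, top) filled 41.1 to 59.3% of the bars of skin nonmigrated cells and at most 4.60% elsewhere, and Trdv4 (green, bottom) was largest in both nonmigrated groups.

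Migrated cells were compared with the steady state LN cells of the same site. The 2 comparisons use separate libraries. In the joint 8 of 9 genes were called higher, against 24.2% of 17107 tested genes called in either direction, 16.9% higher and 7.31% lower. In the skin 8 of 9 were called higher, against 36.5% in either direction, 21.5% higher and 15% lower. Sox13 rose most, by 2.81 ± 0.292 in the joint LN and 2.47 ± 0.301 in the skin LN (edgeR adjusted p = 3.65e-06 and 9.37e-06). Tcrg-V4 rose by 2.26 ± 0.284 and 1.79 ± 0.288, and Trdc by 1.51 ± 0.21 and 1.58 ± 0.212. Tcrg-C1, Tcrg-C2 and Tcrg-C4 rose by 1.71 to 1.96 at the 2 sites. Trdv4 rose by 1.11 ± 0.29 and 1.88 ± 0.316 and Tcrg-V6 by 1.23 ± 0.378 and 1.80 ± 0.424. Tcrg-V5 was at 0.61 ± 0.637 and 0.44 ± 0.894 and was not called. Without joint migrated replicate 1 the same number of genes, 8, was called in the joint, with Sox13 at 2.43, Tcrg-V4 at 1.80 and Trdc at 1.12. Without joint steady state replicate 3 the calls of Trdv4 (1.00) and Tcrg-V6 (1.07) were lost in the joint.

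The alpha beta and CD3 lists did not rise in these comparisons. In the joint LN 1 of the 6 alpha beta genes was called, Cd8b1, which fell by 1.01 (SE 0.23), and the median was -0.13, while the median of the CD3 genes was 0.03. In the skin LN the medians were -0.63 and -0.33, with Trac at -0.52 ± 0.12. None of the 4 CD3 genes was called by edgeR at either site, and none in the joint and 2 in the skin were at an unadjusted p under 0.05. Trdc per 100 CD3 counts stood at 7.06, 6.84 and 6.06 in joint and at 3.99, 4.57 and 4.78 in skin steady state LNs, with every migrated library above them. The log2 ratio was higher in migrated cells by 1.44 in the joint and by 1.96 in the skin. Between the steady state groups themselves none of the 9 genes was called by edgeR or DESeq2, against 3.89% of tested genes in either direction, 3.23% higher and 0.655% lower. At an unadjusted p under 0.05 there were 3, all higher in the joint. Trdv4 was at 0.90 ± 0.312 and Tcrg-V5 at 0.92 ± 0.748.

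Sox13 was read beside 14 genes of the IL-17 programme of gamma delta cells, most of which Th17 cells and innate lymphoid cells express too. The shares of all tested genes called, given above for each comparison, apply to the counts of this and the later lists. In the joint 12 of 14 were called higher in migrated than nonmigrated cells (median 2.46). Those with the smallest adjusted p were 5830411N06Rik, a scavenger receptor gene (4.19 ± 0.38), the chemokine receptor gene Ccr6 (4.73 ± 0.44) and the kinase gene Blk (2.61 ± 0.39). B cells also express Ccr6 and Blk, and summed B cell markers went from 72.6 to 178 CPM up to 622 to 795 CPM in the same comparison, whose part in these values was not tested. In the skin 4 were called higher and 1 lower, Maf, by 1.41 (SE 0.29), and the median was 0.73. Summed macrophage and monocyte markers fell from 2186 to 5308 CPM to 383 to 516 CPM with migration in the skin. Their part in the fall of Maf was not tested. Il17a was at 1.64 ± 0.64 in the joint, where it was called, and at 0.03 ± 0.65 in the skin. Of the 14 genes, 3 differed between sites in their change, 5830411N06Rik (2.72 ± 0.48), Ccr6 (2.84 ± 0.56) and Il22 (3.61 ± 0.99).

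Against steady state, 12 of 14 rose at each site, with medians of 2.66 in the joint and 2.45 in the skin. Il1r1 rose by 2.96 ± 0.14 and 3.99 ± 0.15 and the receptor gene Il17re by 2.95 ± 0.19 and 3.65 ± 0.21. Blk fell at both sites, by 1.33 (SE 0.22) and 2.58 (SE 0.23), and Ccr6 fell by 1.24 (SE 0.16) in the skin. Summed B cell markers stood at 2188 to 3740 CPM at steady state and at 115 to 795 CPM in migrated cells. Their part in Blk and Ccr6 was not tested. Between the steady state groups, 4 genes were called higher in the joint: Il1r1 (1.70 ± 0.15), Il17re (1.73 ± 0.21), Il17a (3.03 ± 0.53) and Il22 (3.62 ± 0.68). These groups are titled PBS in the joint and Naive in the skin, and the part of that difference was not tested. The cytokine transcripts were scarce in skin steady state cells, Il17a at 0.426, 0.139 and 0.092 CPM and Il22 at 0.067, 0.023 and 0.031 CPM. Between migrated cells of the sites none of the 14 was called by edgeR, 8 were higher in the joint at an unadjusted p under 0.05, and the median was 0.95. Innate lymphoid and NK markers, which share several of these programmes, summed to 152 to 259 CPM in joint nonmigrated cells, 664 to 861 CPM in joint migrated cells, 623 to 891 CPM in the skin groups and 321 to 455 CPM at steady state, and their part was not tested.

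**Figure D5:**
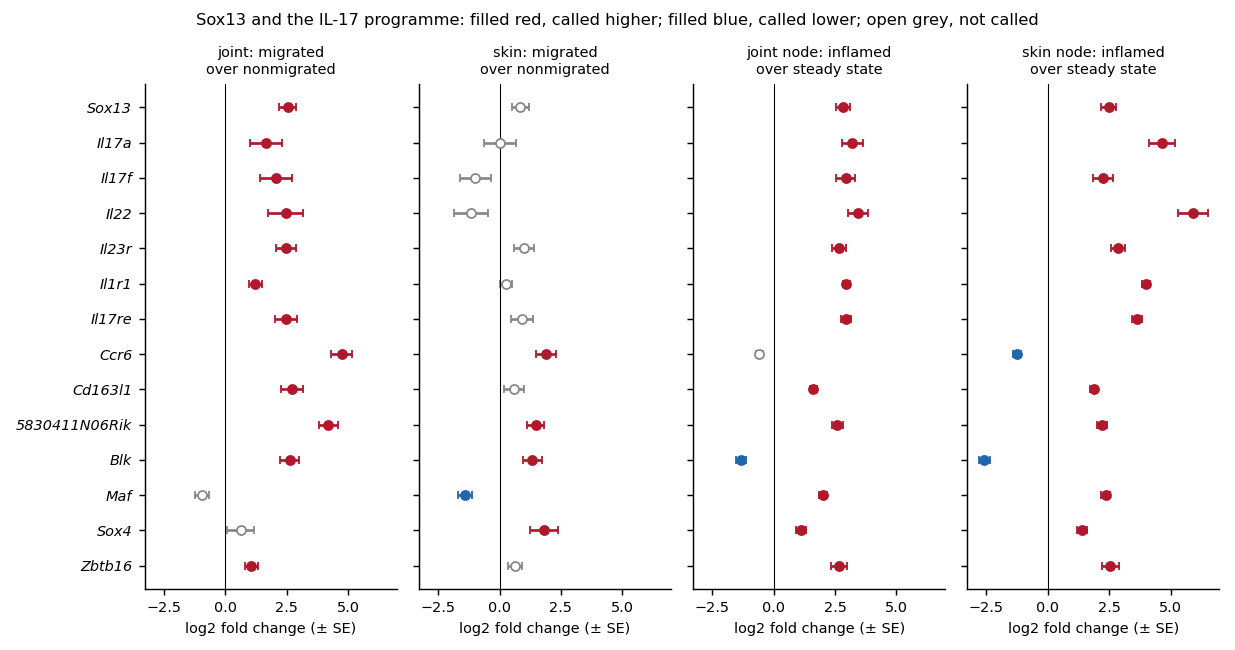
Log2 fold change with its SE (horizontal axis) of Sox13 and 13 genes of the IL-17 programme in 4 comparisons, 3 libraries per group, edgeR. Of the 13 genes drawn, migrated cells were higher for 11 against joint nonmigrated cells and against steady state at each site, and for 4 against skin nonmigrated cells.

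Genes of interferon gamma production and cytotoxicity, the other effector programme of gamma delta cells and one shared with NK and CD8 T cells, were read the same way. In joint migrated cells 8 of 10 were higher than in nonmigrated cells, among them Cd27 (3.29 ± 0.27) and Eomes (3.16 ± 0.48), and in skin migrated cells 4 of 10, again with Cd27 (3.13 ± 0.27) and Eomes (2.35 ± 0.47). Against steady state 7 of 10 were called higher at each site, where 16.9% of tested genes in the joint and 21.5% in the skin were. Gzmb rose by 3.05 ± 0.14 in the joint and 5.07 ± 0.16 in the skin. Gzmb was the 1 gene of the 10 whose change with migration differed between sites (2.73 ± 0.53), at 2.18 ± 0.38 in the joint and -0.55 ± 0.37 in the skin.

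Of 10 genes of epidermal T cell residence, 4 were lower in joint than in skin nonmigrated cells: Itgae, which encodes the integrin chain that binds E-cadherin (-2.96 ± 0.37), Runx3 (-1.30 ± 0.17), the costimulatory receptor gene Jaml (-1.16 ± 0.17) and Klrk1 (-1.26 ± 0.26). With migration, 2 of the 10 were called higher and none lower in the skin and 4 higher and none lower in the joint, and against steady state 7 were called higher in the joint and 6 in the skin. Itgae and Jaml were not called between skin migrated and skin nonmigrated cells (0.30 ± 0.34 and -0.51 ± 0.17). Dendritic cells also express Itgae, and their markers summed to 326 to 662 CPM in skin nonmigrated and to 2848 to 4158 CPM in skin migrated cells, so the part of each cell type in Itgae was not tested. Of 9 regulators of the lineage, Tcf7 (4.07 ± 0.36) and Lef1 (3.02 ± 0.42) rose and Etv5 fell by 1.94 (SE 0.23) with migration in the joint. With migration in the skin 4 were called higher and 2 lower. Between nonmigrated cells 1 was called higher in the joint than in the skin, Id3 (2.32 ± 0.27), and 2 were called lower, with a median of -0.21. Of all tested genes 5.45% were called higher and 8.86% lower there. Of 6 genes of egress and homing, S1pr1, the sphingosine 1-phosphate receptor that guides lymphocyte exit, rose with migration at both sites (3.24 ± 0.18 and 2.83 ± 0.18), as did Ccr7 (4.87 ± 0.56 and 2.16 ± 0.49), while Ccr2 fell by 2.16 (SE 0.25) and 1.63 (SE 0.25). Alpha beta T cells and B cells express many of these genes as well, and the bulk values do not assign any of them to gamma delta cells. With migration in the joint, dendritic cell markers went from 62.0 to 91.6 CPM up to 1358 to 3567 CPM. Macrophage and monocyte markers fell there from 4437 to 6315 CPM to 270 to 406 CPM. The part of these cells in Ccr7 and Ccr2 was not tested.

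The members were correlated to unequal degrees across the 18 libraries, which include the group differences and share libraries and depth. Pearson's r of log2(CPM + 1) was 0.97 between Trdc and Tcrg-C2 and 0.97 between Trdc and Tcrg-C1, and it was 0.95 between Trdv4 and Tcrg-V5. Tcrg-C1 went with both of these, at 0.77 with Trdv4 and 0.63 with Tcrg-V5, and Trdc was at 0.61 with Trdv4 and 0.71 with Sox13. Between Tcrg-V4 and Tcrg-V5 it was 0.01, and between Sox13 and Tcrg-V5 0.06. Among 13550 genes with a mean of at least 1 CPM, those with the pattern most like Trdc were Cd7 (r = 0.971), Trgv2 (0.959), Acsbg1 (0.948), Sytl3 (0.945) and F2r (0.945). For Tcrg-V4 they were 5830411N06Rik (0.973), Bmp7 (0.949), Trgv2 (0.942), Trdv5 (0.940) and Il18r1 (0.936). For Tcrg-V6 they were Mfsd2a (0.922), Dsg2 (0.918), Gpr55 (0.914), Yes1 (0.914) and Arnt2 (0.913). For Sox13 they included Il23r (0.962), Il17re (0.960), Cpe (0.960) and Tigit (0.955).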

How the data were processed

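The authors sequenced 100-base read pairs, trimmed them with Trim Galore, aligned them to mm10 with TopHat2 and Ensembl 87 models, and counted reads per gene with HTSeq under default settings. The deposited table holds raw counts for 49585 genes in 18 libraries. The 5 HTSeq summary lines (11.3 to 15.1% of each column) were removed, and 49326 genes matched GENCODE M21, the source of symbols, positions and sequences. Libraries were grouped by their labels. Tests used the quasi-likelihood method of edgeR 4.0.16 in R 4.3.3 (TMM scaling, filterByExpr with minimum count 10), in a fit of the 12 inflamed libraries (16777 genes) and a fit of the 12 LN libraries (17107 genes), with group as the only factor and Benjamini-Hochberg adjustment per comparison. The threshold, an absolute log2 fold change over 1 and an adjusted p below 0.05, follows the study's methods, which name DESeq2, run here as an alternative (1.42.0). SE is the absolute log2 fold change over the square root of F. Of 200 genes changed in simulated counts for joint migrated against joint nonmigrated cells, over 16777 genes, 83.5% were recovered. Ratios were compared by exact permutation (scipy 1.17.1).

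Named genes are the 9 members, up to 4 genes per list by smallest adjusted p, and the 5 genes most correlated with Trdc, Tcrg-V4, Tcrg-V6 and Sox13. Il17a, Trac, Itgae, Jaml, Ifng, Gzmb in the skin and a few Il1r1, Il22, Cd3 and Krt values were named after their values were seen. The members and lists were chosen with earlier results of these data known. The alternatives were DESeq2 size factors, the DESeq2 Wald test, no filter on low counts, an adjusted p of 0.001, fits of only the compared groups or of all 18 libraries, a replicate block, Trac or Cd3e as reference, and each library left out in turn. Of the genes that the naming rule covers, 2 are not reported here, though list counts include them. Intervals and floors of counts cover counting error only.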

Additional observations from a re-analysis of the deposited data

Results flagged for a closer look

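The change with migration differed between joint and skin for 6 of the 9 genes in edgeR's interaction test (joint minus skin, log2 scale). The difference was 8.56 for Tcrg-V5, 4.67 for Trdv4, 4.04 for Tcrg-C1, 3.26 for Trdc, 2.48 for Tcrg-C2 and 2.41 for Tcrg-V4. The calls of Tcrg-C2 and Tcrg-V4 were lost with replicate number added to the fit. For Tcrg-V4 the change was in the same direction at both sites and larger in the joint, whereas Tcrg-V5, Trdv4 and Tcrg-C1 were lower in migrated cells of the skin.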

How the results depend on the processing

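Over 72 gene values and their alternatives, 975 values were recomputed, of which 913 kept direction and call, 36 lost the call, 15 gained it and 11 changed sign. At an adjusted p under 0.001 the number of called genes was 2 for skin migrated against nonmigrated, 4 for joint against skin nonmigrated and 0 for the interaction (6 at 0.05, all 9 genes at an unadjusted p under 0.05 and 8 called by DESeq2). The DESeq2 Wald test called 1 gene, Sox13, between migrated cells of the sites. The log2 ratio of Trdc to Cd3e alone was -0.0130 for joint migrated against nonmigrated, and that of Trdc to Trac was -0.13 for migrated joint against skin. The cause was not tested.

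With 1 library left out in turn, the ratio of Trdc to CD3 genes ranged from -0.0151 to 0.19 (joint migrated against nonmigrated), -1.35 to -1.15 (skin), -1.35 to -1.26 (nonmigrated) and -0.0736 to 0.18 (migrated). The number of called genes ranged from 7 to 7, 3 to 5, 7 to 8 and 0 to 0 in these comparisons, 6 to 8 and 8 to 8 against steady state in joint and skin, 0 to 0 between steady state groups and 5 to 8 for the interaction. Changes of sign among uncalled values gave ranges of -0.26 to 0.40 for Tcrg-V6 in skin migrated against nonmigrated, and, for migrated joint against skin, -0.18 to 0.39 for Trdc, -0.10 to 0.35 for Trdv4, -0.11 to 0.50 for Tcrg-C2, -0.31 to 0.37 for Tcrg-C4 and -0.10 to 0.56 for Tcrg-V6. They were -0.46 to 1.40 for Tcrg-V5 in skin migrated against steady state and -0.0777 to 0.26 for Tcrg-V4 between the steady state groups.

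Between nonmigrated and migrated libraries, same-numbered deviations correlated at 0.021, 0.254 and 0.195 in the joint and 0.173, 0.0735 and 0.148 in the skin. Different-numbered ones correlated at -0.218 to 0.0384 in the joint and at -0.123 to 0.0294 in the skin. Whether replicate numbers pair the samples was not tested. With the replicate block the called genes numbered 8, 3, 7 and 0 in the inflamed comparisons, 8 and 8 against steady state, 0 between steady state groups and 4 for the interaction, where Tcrg-C2 (2.40) and Tcrg-V4 (2.30) lost their calls. Depth limits Tcrg-V5 and Tcrg-V6, which had 16 counts or fewer outside skin nonmigrated cells and 52 or fewer anywhere, respectively.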
